A study of Mus musculus with 14 samples.

Results

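The sodium pump (Na,K-ATPase) exports sodium and imports potassium with energy from ATP, and so holds the ion gradients on which neurons depend for excitability. It is built from a catalytic alpha subunit and a glycosylated beta subunit that carries the alpha subunit to the plasma membrane. Small single-span proteins of the FXYD family bind the assembled pump and tune its affinity for sodium and potassium, and several of them are found mainly in brain or kidney. The 6 genes described here are 3 beta subunit genes (Atp1b1, Atp1b2 and Atp1b3) and 3 FXYD genes (Fxyd4, Fxyd6 and Fxyd7). They were taken by gene name from a table of 23523 gene entries, and each name matched 1 entry. The list was drawn up with earlier results of these data known. Fxyd4 was chosen by its difference between miR-218 knockout and wild-type motoneurons, so that difference is given as values only, without a test. Which measured values the other 5 genes were chosen by is not recorded. Their p-values, adjusted over every gene tested, are given as descriptions and are not independent evidence.

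Polyadenylated RNA of mouse cells was sequenced in a study of the microRNA miR-218, and 13 of 14 libraries were analysed here. DKO motoneurons (2 libraries) carried the Hb9::gfp reporter and lacked both miR-218 genes (218DKO). The mES progenitors were cultured embryonic stem cells at day 4 of differentiation with retinoic acid and a sonic hedgehog agonist. They comprised 1 library of motoneuron progenitors, sorted for tdTomato from an Olig2:cre;Rosa26:LSL:tdTomato line, and 1 library of neural progenitors that carried no reporter and were not sorted. WT motoneurons (6 libraries) carried Hb9::gfp on a wild-type background. The interneurons were V1 (En1:cre), V2a (Chx10:cre) and V3 (Sim1:cre), each with Rosa26:LSL:tdTomato and 1 library. All motoneurons and interneurons were sorted by their fluorescence from papain-dissociated spinal cords of E12.5 embryos. The labels do not say whether libraries of one group came from separate embryos, so p-values measure the spread between libraries only. Stage and culture cannot be told apart in the progenitor comparison, and in bulk samples fewer cells of a type and less RNA per cell cannot be told apart in any of them.

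The deposited value is a signal per gene, a length-scaled abundance that the authors also scaled between libraries, so levels can be compared between genes. The approximate depth was 7.35 M and 15.4 M reads in the DKO libraries, 11.7 M to 28.1 M in WT motoneurons, and 16.1 M to 25.8 M in the other libraries. The summed signal of 5 motoneuron markers (Mnx1, Isl1, Isl2, Chat and Slc18a3) was 8070 to 8797 in DKO motoneurons and 6991 to 8791 in WT motoneurons. It was 234 to 236 in mES progenitors. Among the interneurons it was 39.8 in V1, 124 in V3 and 1561 in V2a, where Mnx1 itself was at 7.46. None of the 5 markers was at 0 in any library. Each interneuron library was the highest for its own 3 markers. The level of miR-218 itself was not analysed here. A ribosomal RNA entry, Rn45s, stood at 10197 to 27943 in WT replicates 2, 3 and 4, against 644 to 4275 in WT replicates 1, 5 and 6. Results were therefore also computed with each of these sets of 3 WT libraries alone. The V2a library stood apart in its blood markers, with a summed signal of 6882 against 5.88 to 720 in the other 12 libraries.

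MicroRNAs act by pairing their seed, bases 2 to 8, with sites that are mostly in the 3′ untranslated regions (UTRs) of messenger RNAs. The mature sequence and the single matching site found among the 6 genes are shown because the study removed this microRNA. Capitals mark the seed and the bases opposite it, including the A that completes an 8mer. The microRNA is from RefSeq (GRCm38.p6), where it is encoded at chr5:48223966-48223986 and chr11:35616840-35616860, both on the plus strand.
mmu-miR-218-5p: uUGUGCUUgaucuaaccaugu
Atp1b1 3′ UTR site, chr1:164438256-164438275, minus strand, GRCm38: tcacAAGCACAAatctttcc

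The motifs searched were AAGCACAA (8mer), AAGCACA (7mer-m8) and AGCACAA (7mer-A1), on the transcript strand of 1 annotated 3′ UTR per gene, with each gene counted once, by its longest match. In the GENCODE M21 annotation of GRCm38, the Atp1b1 match begins at base 5 of a 3′ UTR of 1167 bases. No match was present in the 3′ UTR of Fxyd4 (169 bases), Fxyd6 (1194 bases), Fxyd7 (369 bases), Atp1b2 (1512 bases) or Atp1b3 (869 bases). Over 19190 genes with a 3′ UTR, 3.65% held an 8mer and 17.3% any of the motifs. A match is a description of letters and not evidence of binding.

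The 6 genes lie at separate loci. On GRCm38, Atp1b1 occupies chr1:164437109-164458355, Atp1b2 chr11:69599736-69605942, Atp1b3 chr9:96332655-96364442, Fxyd4 chr6:117933559-117937692 and Fxyd7 chr7:31042513-31051467, all on the minus strand. Fxyd6 occupies chr9:45370185-45396159 on the plus strand. Atp1b1 shares 575 exon bases with Nme7 on the opposite strand, and because the library kit does not mark strand, reads from that stretch cannot be assigned to either gene. No other member shares exon bases with another annotated gene.

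Taken as levels, 5 of the 6 genes were well measured and Fxyd4 was close to absent from the data. By mean signal over the 13 libraries, Fxyd6 ranked 444, Fxyd7 689, Atp1b1 928, Atp1b3 1084, Atp1b2 8247 and Fxyd4 16543 among the 23523 entries. Atp1b3 varied least, with a highest-to-lowest ratio of 1.61 over all 13 libraries, against 2.91 for Atp1b2, 7.94 for Atp1b1 and 14.9 for Fxyd6. Fxyd7 was listed at 0 in both mES progenitor libraries, and over the 11 embryonic libraries it had the widest range of the 5, at 14.2-fold.

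**Figure D1:**
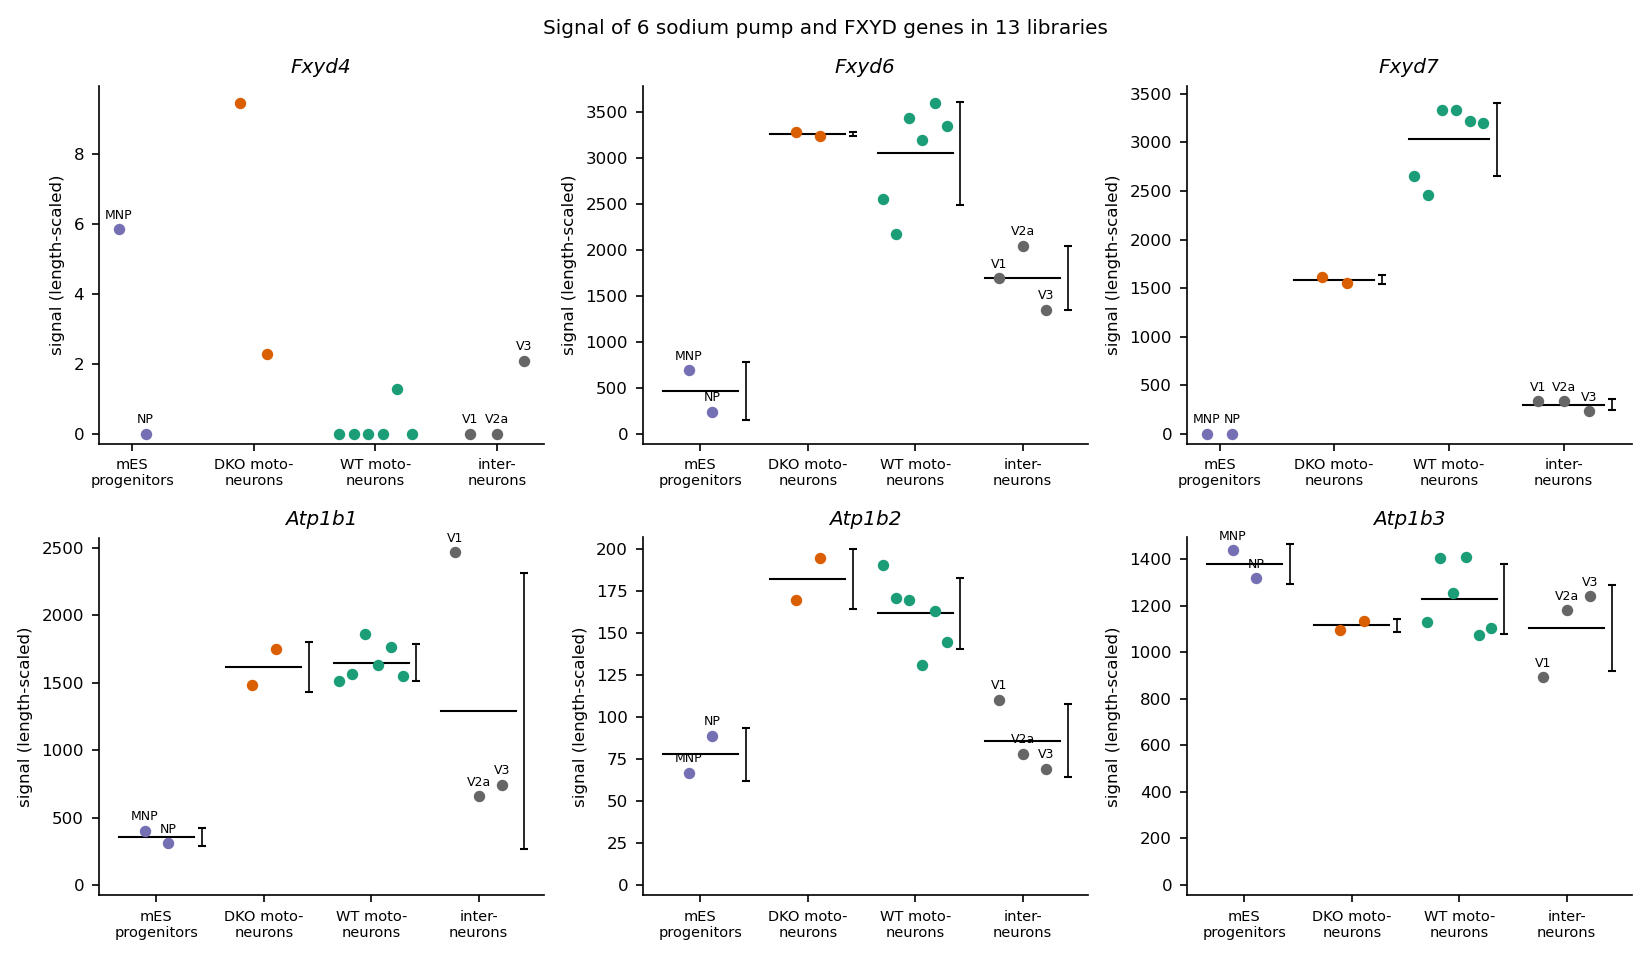
Signal of each of the 6 genes (vertical axis, length-scaled signal) in every library (1 point each), by class; horizontal lines are class means and vertical bars ± 1 SD, left out for Fxyd4 and for the mES progenitors of Fxyd7, where libraries are at 0. MNP and NP are the motoneuron and neural progenitors. Fxyd7 is at 1552 to 1618 in DKO motoneurons, 2461 to 3335 in WT motoneurons and 234 to 335 in interneurons, whereas Atp1b3 stays between 894 and 1440 throughout.

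DKO motoneurons were compared with WT motoneurons to ask which transcripts differ when both miR-218 genes are missing. Among the 6 genes, Fxyd7 fell, the 3 beta subunit genes and Fxyd6 did not pass the test, and Fxyd4 was at the level of single reads. In limma-trend on log2(signal + 1), 1299 of 16260 genes passed at an adjusted p below 0.05, which is 7.99%, with 3.22% higher and 4.77% lower. Of the 5 genes other than Fxyd4, 1 passed, Fxyd7 as lower. It was also the only one of the 5 whose groups did not overlap, against 30.7% of all genes tested. Fxyd4 is left out of these counts, because it was chosen by this difference and rests on single reads.

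Fxyd7 encodes a FXYD protein of neurons that binds the pump and lowers its apparent affinity for potassium. Its signal was 1618 and 1552 in the DKO libraries, against 2654, 2461, 3335, 3331, 3217 and 3200 in WT replicates 1 to 6. Both DKO libraries lay below every WT library, and the lowest WT value was 2461. The means were 1585 ± 46.9 in DKO motoneurons and 3033 ± 377 in WT motoneurons (SD, n = 2 and 6). The log2 difference was -0.93 (SE 0.14, 95% interval -1.23 to -0.63, limma adjusted p = 0.00388), a fall of 1.90-fold. It was -0.93 with either set of 3 WT libraries alone, but the call did not hold without DKO replicate 1 (adjusted p = 0.0703) or without DKO replicate 2 (adjusted p = 0.0768), although the difference itself stayed at -0.96 and -0.90. The summed motoneuron markers of the 2 classes overlapped, and the glial markers (Slc1a3, Fabp7, Aldh1l1, Gfap, Sox10 and Pdgfra) summed to 185 to 264 in DKO motoneurons and 203 to 1037 in WT motoneurons. Summed V1 markers (En1, Foxd3 and Pax2) were 394 to 401 in DKO motoneurons and 118 to 377 in WT motoneurons. The V1 sum was higher in the DKO libraries, without overlap. The part of these markers in the Fxyd7 difference was not tested.

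Fxyd6 encodes a FXYD protein that is abundant in the nervous system. It had a signal of 3282 and 3247 in DKO motoneurons, against 2561, 2170, 3437, 3197, 3599 and 3351 in WT motoneurons. The DKO values lay inside the WT range. The log2 difference was 0.12 (95% interval -0.28 to 0.52, limma adjusted p = 0.715).

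The mix of FXYD transcripts is given as a description. Fxyd7 made up 32.0% to 32.7% of the summed FXYD signal in DKO motoneurons and 46.8% to 52.4% in WT motoneurons, with Fxyd6 at 66.4% to 66.9% in DKO motoneurons and 46.2% to 52.3% in WT motoneurons. The sum itself was 4852 to 4943 in DKO motoneurons and 4695 to 6882 in WT motoneurons, so the sums overlapped while the shares did not.

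Fxyd4, known as corticosteroid hormone-induced factor, raises the sodium affinity of the pump in kidney and colon epithelium. It was listed at 9.48 and 2.27 in DKO motoneurons, and at 0 in WT motoneurons except replicate 5 (1.29). Given each library's depth and the transcript's length of 550 bases, these values correspond to about 2 reads and 1 read in the DKO libraries and 1 read in WT replicate 5. In total that is 3 reads among 22.8 M in DKO motoneurons and 1 read among 126 M in WT motoneurons. Elsewhere Fxyd4 had about 4 reads in the motoneuron progenitors (signal 5.86), 1 read in V3 interneurons (2.09) and none in the neural progenitors, V1 or V2a. The 5 libraries above 0 thus held 9 reads between them, and the DKO and WT levels are both at or below 3 reads per library, so no fold is given. All of this signal was on 1 transcript, NM_001173372, and NM_033648 was listed at 0 in all 13 libraries.

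Atp1b1 encodes a widely expressed beta subunit and was the only one of the 6 with a miR-218 seed match. Its signal was 1486 and 1748 in DKO motoneurons, against 1515, 1568, 1862, 1629, 1762 and 1553 in WT motoneurons. The 2 DKO libraries fell on either side of the WT median of 1598. The log2 difference was -0.03 (95% interval -0.28 to 0.22, limma adjusted p = 0.901), and its sign turned in 4 of 18 alternative settings.

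Atp1b3 encodes a broadly expressed beta subunit, and Atp1b2 encodes a beta subunit also known as an adhesion molecule on glia. Atp1b3 had 1097 and 1135 in DKO motoneurons, against 1131, 1407, 1257, 1411, 1073 and 1104 in WT motoneurons. The log2 difference was -0.13 (95% interval -0.42 to 0.15, limma adjusted p = 0.541), with DKO values at the lower end of the WT range. Atp1b2 had 169 and 195 in DKO motoneurons, against 191, 171, 170, 131, 163 and 145 in WT motoneurons. Its log2 difference was 0.18 (95% interval -0.17 to 0.52, limma adjusted p = 0.490), and the groups overlapped. None of the 3 beta intervals reached the size of the Fxyd7 difference, with -0.42 as the lowest bound.

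**Figure D2:**
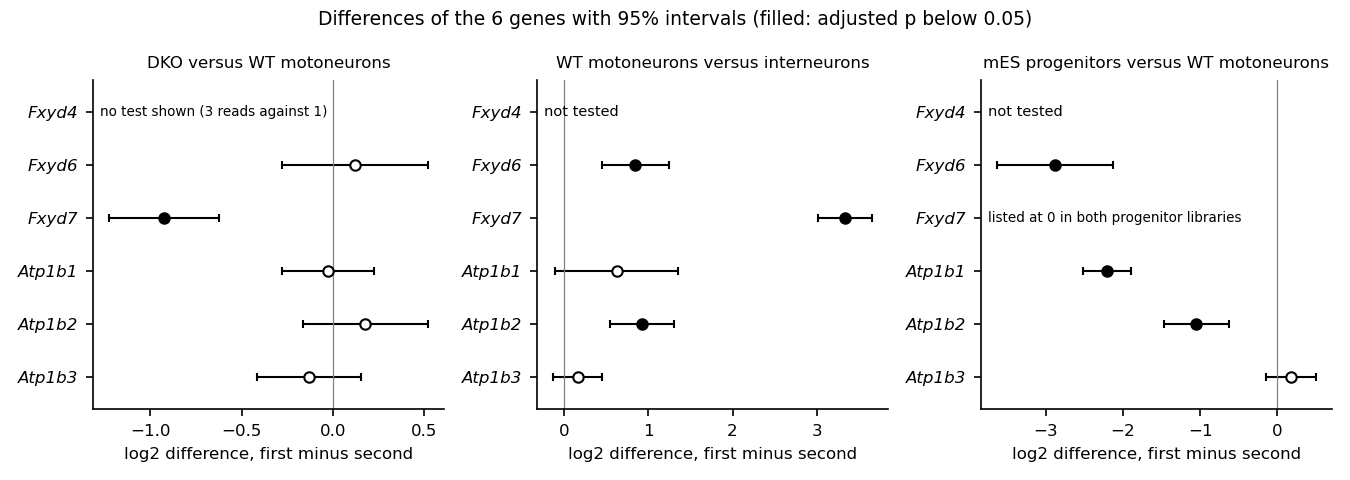
Log2 differences of the 6 genes in the 3 comparisons (horizontal axis, first-named class minus second), with 95% intervals from limma; filled points have an adjusted p below 0.05. In DKO against WT motoneurons Fxyd7 stands at -0.93 while the intervals of Fxyd6, Atp1b1, Atp1b2 and Atp1b3 include 0; no value is drawn for Fxyd4, nor for Fxyd7 in mES progenitors.

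The same question was put to relatives of these genes. The gastric and colonic pump genes Atp4b and Atp12a and the beta subunit relative Atp1b4 were too low for a test, with no value above 2.85 in any library, and the gastric proton pump gene Atp4a did not pass (limma adjusted p = 0.979). Of 3 other FXYD genes tested, Fxyd5 passed as lower, from low values, and Fxyd1 and Fxyd2 did not pass. Fxyd5, which encodes dysadherin, had 10.2 and 21.5 in DKO motoneurons, against 70.5, 40.0, 42.7, 34.0, 34.8 and 35.7 in WT motoneurons, with no overlap. Its log2 difference was -1.42 (SE 0.33, limma adjusted p = 0.0277), but the call was lost in 4 alternatives. Without DKO replicate 1 it was -0.92 (adjusted p = 0.313) and without DKO replicate 2 it was -1.93 (0.0602), and the adjusted p was 0.210 with all 13 libraries in one fit and 0.0951 with the replicate number as a block. Fxyd1, which encodes phospholemman, averaged 5.97 ± 5.18 in DKO and 12.0 ± 5.92 in WT motoneurons (limma adjusted p = 0.319). Its DKO values, 9.64 and 2.31, were close to those of Fxyd4, 9.48 and 2.27. Reads were not computed for Fxyd1 and Fxyd5. At the 550 bases of Fxyd4, 3 reads would give 14.3 in DKO replicate 1 and 6.84 in DKO replicate 2. The Fxyd1 values and the Fxyd5 value of 10.2 in DKO replicate 1 may thus rest on few reads. Fxyd2, the gamma subunit gene of kidney, averaged 18.2 ± 5.89 in DKO and 17.8 ± 5.73 in WT motoneurons (limma adjusted p = 0.947).

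None of 4 Nkain genes, whose proteins bind a pump beta subunit in mouse, and none of 6 calcium pump genes passed in this comparison. Of 11 transporters that draw on the sodium or potassium gradients, 1 rose, 1 fell and 9 did not pass. Slc24a3, a potassium-dependent sodium-calcium exchanger, had 460 and 473 in DKO motoneurons and 259 to 389 in WT motoneurons (log2 difference 0.64, SE 0.15, limma adjusted p = 0.0248). Slc12a7, a potassium-chloride cotransporter, had 94.7 and 75.7 in DKO motoneurons and 124 to 152 in WT motoneurons (log2 difference -0.70, SE 0.14, limma adjusted p = 0.0154). Both genes separated the classes without overlap. The Slc24a3 call was lost without DKO replicate 1 (adjusted p = 0.188), without DKO replicate 2 (0.208), with WT replicates 2, 3 and 4 alone (0.0616), with all 13 libraries in one fit (0.456) and with the replicate block (0.0946). Its difference was 0.62 to 0.76 in these fits. The adjusted p of Slc12a7 was above 0.05 with DKO replicate 1 left out (0.0761), with DKO replicate 2 left out (0.211), with all 13 libraries (0.326) and with the block (0.247), at differences of -0.86 to -0.54. The neuronal potassium-chloride cotransporter gene Slc12a5 averaged 518 ± 39.6 in DKO and 475 ± 72.8 in WT motoneurons and did not pass (limma adjusted p = 0.610).

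WT motoneurons were set against the V1, V2a and V3 interneurons, taken as 1 class of 3 libraries, to ask which genes differ between motoneurons and other spinal neurons of the same stage. This comparison shares its WT libraries with the one above. Fxyd7, Fxyd6 and Atp1b2 were higher in motoneurons, and Atp1b1 and Atp1b3 did not pass. Of 16486 genes tested, 32.9% passed, 17.7% as higher and 15.2% as lower in motoneurons. Of the 5 members with enough signal to be tested, 3 passed, all as higher, and the same 3 had groups that did not overlap, against 33.1% of all genes. The median log2 difference was 0.85 over these 5 genes and -0.04 over all genes tested.

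Fxyd7 showed the widest separation of the 6. Its signal was 2461 to 3335 in WT motoneurons (median 3209), against 333 in V1, 335 in V2a and 234 in V3 interneurons. The means were 3033 ± 377 and 301 ± 57.6 (SD, n = 6 and 3 different interneuron types), a 10.1-fold difference (log2 3.34, SE 0.14, limma adjusted p = 2.77e-07). The 2 DKO values, 1618 and 1552, lay between these ranges, below every WT motoneuron and above every interneuron library. Fxyd7 took 46.8% to 52.4% of the summed FXYD signal in WT motoneurons and 13.9% to 16.2% in interneurons, where Fxyd6 took 82.3% to 85.2%.

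Fxyd6 was at 2170 to 3599 in WT motoneurons (median 3274), against 1692 in V1, 2046 in V2a and 1349 in V3 interneurons. It was 1.80-fold higher in motoneurons (log2 0.85, SE 0.18, limma adjusted p = 0.00564), with the closest values 2170 in a WT motoneuron library and 2046 in V2a. Atp1b2 was at 131 to 191 in WT motoneurons (median 167), against 110 in V1, 78.2 in V2a and 69.2 in V3 interneurons. It was 1.90-fold higher in motoneurons (log2 0.92, SE 0.17, limma adjusted p = 0.00284). Summed glial markers were 203 to 1037 in WT motoneurons and 701 to 1279 in interneurons, and their part in these differences was not tested. All 3 genes also passed without the V2a library and in every other alternative run.

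Atp1b1 divided the interneurons. It was at 1515 to 1862 in WT motoneurons, against 2467 in V1, 659 in V2a and 744 in V3 interneurons. The V1 library was above every motoneuron library and the V2a and V3 libraries were below them. As a class the interneurons averaged 1290 ± 1020, and the log2 difference was 0.62 (SE 0.33, 95% interval -0.11 to 1.36, limma adjusted p = 0.165). Without V1 it was 1.23 (limma adjusted p = 4.68e-05). With 1 library of each interneuron type, a difference between types has no replicate check. The libraries also differed in other markers. Progenitor markers (Olig2, Sox2, Nes, Pax6 and Hes5) summed to 328 in V1, 753 in V2a and 1048 in V3, against 213 to 441 in WT motoneurons. Mesenchyme markers (Col1a1, Col1a2, Pdgfrb and Lum) summed to 11.6 in V1, 115 in V2a and 512 in V3. Their part in the Atp1b1 and Atp1b3 differences between interneuron types was not tested.

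Atp1b3 ran the other way among the interneurons, at 894 in V1, 1182 in V2a and 1241 in V3, against 1073 to 1411 in WT motoneurons. The log2 difference between motoneurons and interneurons was 0.16 (95% interval -0.14 to 0.45, limma adjusted p = 0.370). The beta mix is given as a description. Atp1b1 made up 54.0% to 56.8% of the summed beta signal in DKO motoneurons and 49.8% to 58.8% in WT motoneurons, against 71.1% in V1, 34.4% in V2a and 36.2% in V3 interneurons. Atp1b3 made up 36.9% to 39.8% in DKO motoneurons and 35.8% to 44.7% in WT motoneurons, against 25.8% in V1, 61.6% in V2a and 60.4% in V3 interneurons. Atp1b2 made up 3.17% to 6.72% over the 13 libraries.

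**Figure D3:**
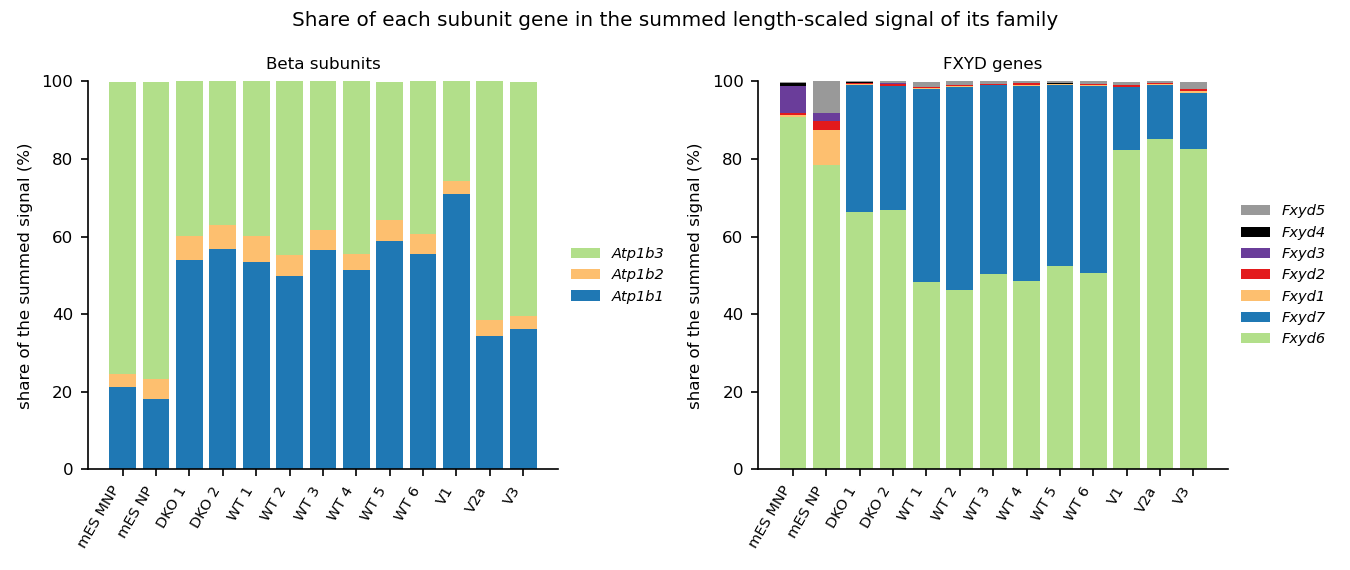
Share (vertical axis, percent) of each of 3 beta subunit genes and 7 FXYD genes in the summed signal of its family, 1 bar per library. In the beta panel V1 has the highest Atp1b1 share of the interneurons at 71.1%; in the FXYD panel Fxyd7 is at 0 in the mES bars, 32.0% to 32.7% in the DKO bars and 46.8% to 52.4% in the WT bars.

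Of 3 other FXYD genes tested, Fxyd2 and Fxyd5 were higher in motoneurons. Fxyd2 averaged 17.8 ± 5.73 in WT motoneurons and 8.05 ± 2.14 in interneurons (limma adjusted p = 0.0272), and Fxyd5 averaged 43.0 ± 13.9 and 20.7 ± 9.50 in the same order (limma adjusted p = 0.0262). Each passed in 13 of 18 alternatives and with neither set of 3 WT libraries alone. Fxyd1 averaged 12.0 ± 5.92 in WT motoneurons and 4.19 ± 3.72 in interneurons (limma adjusted p = 0.0682).

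Among the Nkain genes, Nkain2 was higher in WT motoneurons, at 175 to 261, against 25.4 to 67.6 in interneurons (log2 2.45, SE 0.27, limma adjusted p = 1.30e-04). Nkain4 (log2 -1.11, adjusted p = 0.00218) and Nkain3 (log2 -0.82, adjusted p = 0.0223) were lower, and Nkain1 did not pass in limma (log2 0.34, adjusted p = 0.0675). The Nkain3 call was lost without V3 (adjusted p = 0.0889) and with WT replicates 1, 5 and 6 alone (0.119). Atp4a was higher in WT motoneurons at 14.7 ± 2.35, against 4.34 ± 1.56 in interneurons (limma adjusted p = 0.00242). Of 6 calcium pump genes, the plasma membrane pumps Atp2b1, Atp2b2 and Atp2b3 were higher and 3 did not pass, but each of these calls depended on single libraries. Atp2b1 averaged 1849 ± 374 in WT motoneurons and 929 ± 653 in interneurons, with overlap (log2 1.20, limma adjusted p = 0.0198). Its call was lost without V2a (adjusted p = 0.0722), without V3 (0.0764) and with either set of 3 WT libraries alone (0.0670 and 0.131). Atp2b2 averaged 557 ± 81.2 in WT motoneurons and 383 ± 39.8 in interneurons, also with overlap (log2 0.53, limma adjusted p = 0.0146), and its call was lost without V1 (0.0509) and with WT replicates 1, 5 and 6 alone (0.0934). Atp2b3 averaged 113 ± 16.5 in WT motoneurons and 60.4 ± 27.8 in interneurons (log2 0.97, limma adjusted p = 0.0147), and its call was lost without V3 (0.0528) and with either set of 3 WT libraries alone (0.0718 and 0.0802). Of 11 gradient-using transporters, Slc24a2 alone passed, as higher in motoneurons (13.7 ± 1.89 against 5.38 ± 1.29; limma adjusted p = 0.00590).

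**Figure D4:**
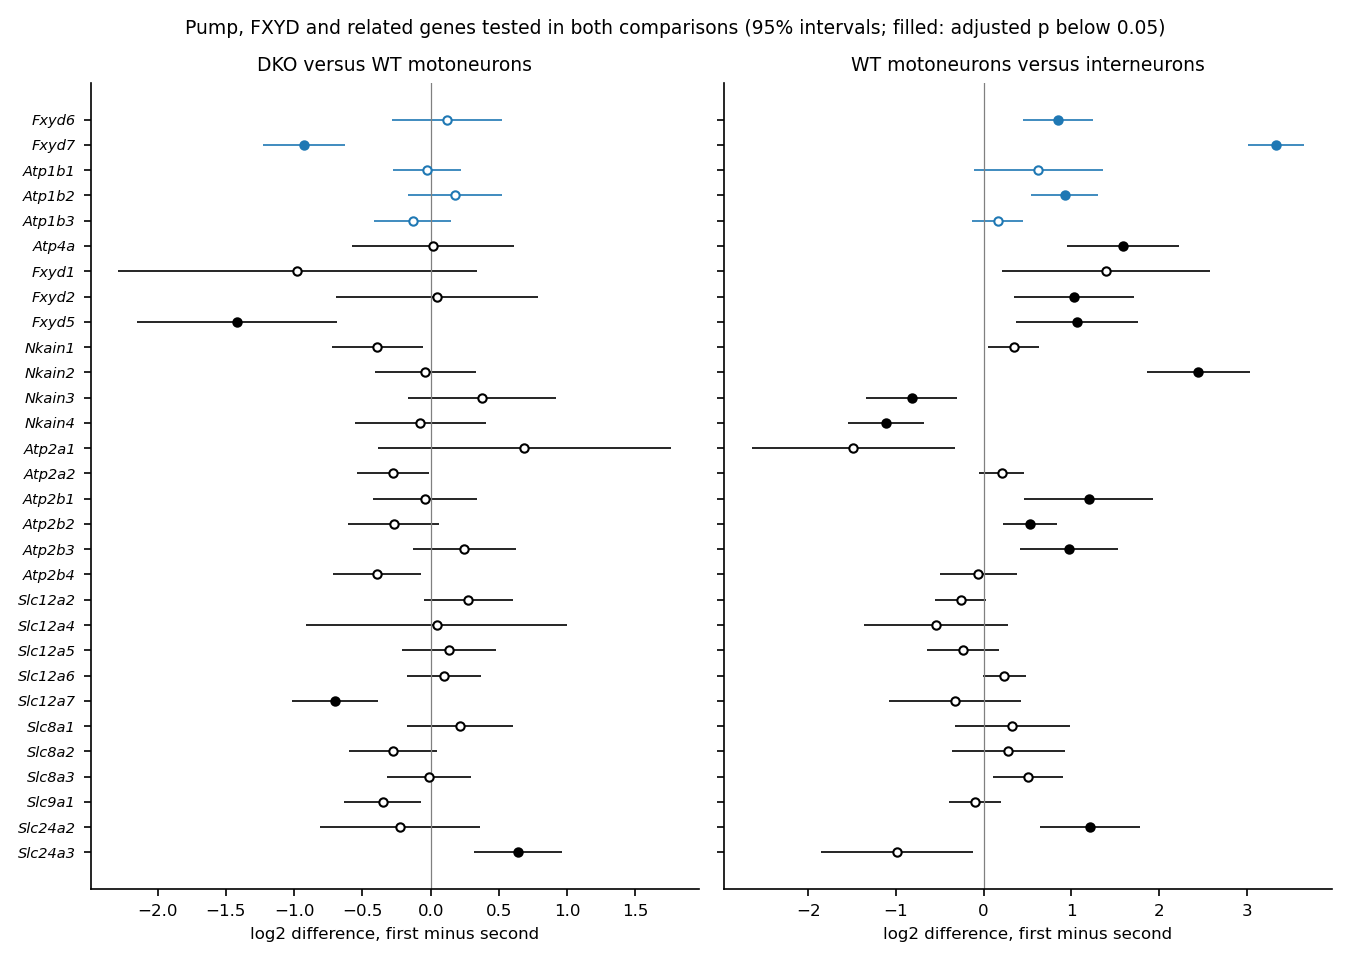
Log2 differences with 95% limma intervals for 30 pump, FXYD and related genes tested in both comparisons of embryonic neurons (horizontal axes; members in blue, other genes in black; filled points have an adjusted p below 0.05). In the left panel Fxyd7, Fxyd5, Slc12a7 and Slc24a3 are the filled points; in the right panel Fxyd7 at 3.34 and Nkain2 at 2.45 are the farthest to the right.

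The mES progenitors, 2 libraries of different populations taken as 1 class, were set against the same WT motoneurons. Fxyd6, Atp1b1 and Atp1b2 were lower in the progenitors, Atp1b3 did not pass, and Fxyd7 was listed at 0 in both progenitor libraries. Of 17134 genes tested, 66.2% passed, 36.2% as higher and 30% as lower, so a pass is the common outcome here. Of the 4 members with signal in both classes, 3 passed, all as lower, and the same 3 had groups that did not overlap, against 66.1% of all genes. The median log2 difference over all genes tested was 0.12, and differences in this comparison are to be read relative to that shift.

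Fxyd7 was listed at 0 in both progenitor libraries, where 3 reads would give a signal of 3.51 and 3.50, against 2461 to 3335 in WT motoneurons. It passed the filter on low values only through the WT libraries, and a fitted value would be set by the pseudocount, so no fold or test is given. Fxyd6 was at 691 in motoneuron progenitors and 241 in neural progenitors, against 2170 to 3599 in WT motoneurons (log2 -2.88, SE 0.34, limma adjusted p = 2.84e-05). It still made up 91.0% and 78.5% of the summed FXYD signal in these 2 libraries, where that sum was 760 and 307.

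Atp1b1 was at 404 in motoneuron progenitors and 311 in neural progenitors, against 1515 to 1862 in WT motoneurons, and was 4.63-fold lower in the progenitors (log2 -2.21, SE 0.14, limma adjusted p = 3.01e-07). Atp1b2 was at 66.8 and 88.9 in the same 2 progenitor libraries, against 131 to 191 in WT motoneurons, and was 2.07-fold lower in the progenitors (log2 -1.05, SE 0.19, limma adjusted p = 6.24e-04). Atp1b3 was at 1440 and 1319 in the progenitors, against 1073 to 1411 in WT motoneurons (log2 0.17, 95% interval -0.15 to 0.50, limma adjusted p = 0.320). Atp1b3 accordingly made up 75.4% to 76.8% of the beta signal in the progenitors and 35.8% to 44.7% in WT motoneurons.

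Among other FXYD genes, Fxyd3, first described in mammary tumours, was at 52.4 and 6.14 in the progenitors, against 0 to 1.35 in WT motoneurons, and since it passed the filter only through the progenitors no test is given. Fxyd2 and Fxyd5 were lower (limma adjusted p = 0.00530 and 0.00968), Fxyd1 did not pass (limma adjusted p = 0.883), but neither call held in every alternative. Without the motoneuron progenitor library the Fxyd5 difference was -0.70 (adjusted p = 0.172), against -2.03 with it, and the call was also lost with WT replicates 2, 3 and 4 alone (0.0622) and with WT replicates 1, 5 and 6 alone (0.0595). The Fxyd2 call was lost without the motoneuron progenitor library (adjusted p = 0.0565) and with array weights (0.0734). In that library Fxyd1, Fxyd2 and Fxyd5 were at 2.98, 4.33 and 3.15, where 3 reads of a 550-base transcript would give 4.42. Atp4a was lower, at 5.85 ± 2.33 in mES progenitors and 14.7 ± 2.35 in WT motoneurons (SD, n = 2 and 6; limma adjusted p = 0.00664), and its call was lost with array weights (0.0549) and with WT replicates 2, 3 and 4 alone (0.0584). Of 4 Nkain genes, Nkain1, Nkain3 and Nkain4 were lower. Nkain2 averaged 0.830 ± 0.108 in mES progenitors and 214 ± 34.5 in WT motoneurons (SD, n = 2 and 6). It passed the filter only through the WT libraries, so no test is given. Nkain3 was at 1.68 and 0.836 in the progenitors, and its difference ran from -4.23 to -1.92 over the alternatives. The Nkain4 difference was -1.36 (adjusted p = 0.0270), and -0.24 without the neural progenitor library (0.548), and its call was also lost with either set of 3 WT libraries alone (0.131 and 0.0936). Of 7 calcium pump genes, Atp2b1, Atp2b2, Atp2b3 and Atp2b4 were lower and 2 did not pass. Atp2a3 was at 29.3 and 69.9 in the progenitors, against 0 to 0.940 in WT motoneurons. It passed the filter only through the progenitors, so no test is given. Of 11 gradient-using transporters, Slc12a2, Slc12a4 and Slc12a7 were higher, 7 were lower and 1 did not pass. Among the 7, Slc24a2 was at 0.538 and 1.07 in the progenitors. It passed the filter only through the WT libraries, so its call is not read. The chloride transporters split: Slc12a5 was at 12.0 ± 2.39 in mES progenitors and 475 ± 72.8 in WT motoneurons, whereas Slc12a7 was at 524 ± 123 and 139 ± 9.26 in the same order.

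Across classes, the order of mean levels for Fxyd7 was WT motoneurons, DKO motoneurons, interneurons and mES progenitors, with no overlap between neighbours. For Fxyd6, DKO and WT motoneurons overlapped and came first, followed by interneurons and then mES progenitors. For Atp1b1, WT motoneurons, DKO motoneurons and interneurons overlapped and mES progenitors came last. For Atp1b2, DKO and WT motoneurons overlapped at the top, and interneurons and mES progenitors overlapped at the bottom. For Atp1b3 the order was mES progenitors, WT motoneurons, DKO motoneurons and interneurons, and every neighbouring pair overlapped.

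Likeness of pattern was described by Pearson's r of log2(signal + 1) over the 13 libraries, among 13719 genes, with no test. The 13 points fall into classes and share each library's scaling. Fxyd7 and Fxyd6 were alike with r = 0.94, Fxyd7 and Atp1b1 with r = 0.88, and Fxyd6 and Atp1b1 with r = 0.85. Atp1b3 had negative r with Atp1b1 (-0.53), Fxyd6 (-0.35), Fxyd7 (-0.34) and Atp1b2 (-0.27). The genes most like Fxyd7 were Ache, which encodes acetylcholinesterase (r = 0.996), Faim2 and Ckmt1. Those most like Fxyd6 were Bex2 (0.989), Armcx6 and Atp6v0e2, and those most like Atp1b1 were the somatostatin receptor gene Sstr1 (0.990), Trpc4 and Ptchd4. Atp1b2 was most like Tac1, the substance P precursor gene (0.976), Slc35g2 and Smad9, and Atp1b3 was most like Minpp1 (0.909), Igf2bp3 and Tceal8. For Fxyd4, with 9 reads in all, no likeness is given.

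Within the 11 embryonic libraries alone, both the members' likeness to each other and the most alike genes differed from those over 13. Fxyd7 and Fxyd6 had r = 0.86, Fxyd7 and Atp1b1 0.54, and Fxyd6 and Atp1b1 0.47. Atp1b3 still had a negative r with Atp1b1 (-0.33), whereas with Fxyd6 (0.08), Fxyd7 (0.33) and Atp1b2 (0.01) its r was above 0. Fxyd7 was then most like Arhgdig (0.993), Cpne5 and Ret, the receptor gene for glial-derived neurotrophic factors. Fxyd6 was most like Uqcr10 (0.991), Ndufb9 and Atp5l, which encode subunits of the mitochondrial respiratory chain and ATP synthase. Of the 3 most alike genes, Atp1b2 shared 2 between both sets of libraries, Atp1b1 shared 1 and Fxyd6, Fxyd7 and Atp1b3 shared 0.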

How the data were processed

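RNA-seq libraries of 13 samples were analysed. Per the labels' protocols, libraries were made with a TruSeq RNA kit from polyadenylated RNA, without strand information. The authors deposited a signal per gene (23523 entries) and per transcript (31702), per the file headers on RefSeq gene models. The submitters' processing notes name DESeq, bedtools, mm9 and mm10, without a role; no aligner is given in the sources used here. The 75th percentile of the deposited signal was 228 to 234 in every library, and the totals differed, so the values are not counts. Low values multiplied by transcript length lay within 0.1 of whole multiples of 1 constant per library for 78.0% to 79.5% of single-transcript genes, against 20% by chance, which gave the approximate depths and reads. Read numbers cover counting error only.

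Differences were computed with limma 3.58.1 (R 4.3.3) as limma-trend on log2(signal + 1), keeping genes whose mean signal reached 1 in the libraries of a comparison. P-values are two-sided and adjusted by Benjamini-Hochberg over all genes tested, with a threshold of 0.05; the log scale with a pseudocount understates changes of low genes. The 3 comparisons share the WT libraries. Named were all 6 genes, every other beta subunit or FXYD gene tested, and genes of the other lists where they pass; some genes of these lists are not reported here. A few non-passing genes beyond this rule (Nkain1, Slc12a5) were chosen after their values were seen. The genes and lists were chosen with earlier results of these data known. Alternatives covered the pseudocount, the filter on low values, scaling, array weights, all 13 libraries in one fit, 2 sets of 3 WT libraries, each library left out and a replicate block. The scripts were tested on simulated data. Positions and 3′ UTRs are from GENCODE M21 on GRCm38; the authors' build may differ.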

Additional observations from a re-analysis of the deposited data

Results flagged for a closer look

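Among 36 genes of the pump, FXYD and related lists, 6 had 1 WT motoneuron library that stood apart from the other 5 by Dixon's criterion, which chance meets in about 1 of 20 groups. Fxyd4 (1.29), Fxyd3 (1.35) and Atp1b4 (0.174) were above 0 in WT replicate 5 alone, at about single-read levels. Fxyd5 was at 70.5 in WT replicate 1, against 42.7 in the next WT library. Atp2b4 was at 209.9 in WT replicate 1, against 274 in the next. Slc24a3 was at 389 in WT replicate 3, against 305 in the next.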

How the results depend on the processing

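Of 1299 genes passing between DKO and WT motoneurons, the count was 3731 with array weights, 247 with all 13 libraries in one fit, 2452 with WT replicates 2, 3 and 4 alone (52.3% of them higher, against 40.3%), 2315 with WT replicates 1, 5 and 6 alone, and 97 to 2032 with 1 library left out (97 without DKO replicate 1, 141 without DKO replicate 2, 2032 without WT replicate 2 and 827 without WT replicate 4). Members are counted there without Fxyd4, whose result is not read. Of the others, Fxyd7 alone passed, and no other passed in any alternative. With the replicate number as a block, 214 genes and 0 members passed, with Fxyd7 at -0.69 (adjusted p = 0.108). The numbers do not mark pairs in the labels, and the deviations of same-numbered DKO and WT libraries had r = -0.05 and 0.01. With 2 DKO libraries the deviations mirror each other, so these r cannot tell whether the libraries are paired. The Fxyd7 difference kept its direction in all 18 alternatives and passed in 15. Between WT motoneurons and interneurons, 5419 genes passed, 9093 with array weights, 3536 with WT replicates 1, 5 and 6 alone and 3684 to 5672 with 1 library left out; members numbered 3 to 4. Atp1b1 passed there with array weights as well (log2 1.19, adjusted p = 4.59e-04). Between mES progenitors and WT motoneurons, the count was 10929 to 11312 with 1 WT library left out. Fxyd6, Atp1b1 and Atp1b2 stayed lower in the progenitors in all 17 alternatives.

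Signs turned only among differences that did not pass, and the cause was not tested. For DKO against WT motoneurons, Atp1b1 was 0.00476 with WT replicates 1, 5 and 6 alone, 0.0645 with the block and -0.14 to 0.0886 with 1 library left out (above 0 without DKO replicate 1 or WT replicate 3). Atp1b3 was 0.0180 with WT replicates 1, 5 and 6 alone. Atp4a was -0.0142 with array weights, -0.0877 with WT replicates 1, 5 and 6 alone and -0.0885 to 0.12 with 1 library left out. Fxyd2 was -0.0186 with WT replicates 2, 3 and 4 alone and -0.27 to 0.37 with 1 library left out. For WT motoneurons against interneurons, Atp1b3 was -0.0250 with array weights. For mES progenitors against WT motoneurons, Fxyd1 was 0.0339 with a pseudocount of 8, 0.40 with WT replicates 2, 3 and 4 alone and -1.55 to 1.28 with 1 library left out. Shares from the transcript table were unchanged for Atp1b1, Atp1b2 and Atp1b3. Each has 1 transcript entry with the same values as its gene entry, so this is not a separate check. Genes below about 3 reads per library, Fxyd4 among them, cannot be compared at this depth.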
